A study of Mus musculus with 12 samples.

Results

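The transcriptional response of control muscle satellite cells (SCs) to muscle injury was followed in 6 RNA-sequencing libraries out of the 12 of the series. The members are all libraries from FoxM1fl/fl mice, 3 from uninjured mice and 3 from mice at 48 h post-injury, chosen by genotype alone. The mice were 2 months old and carried loxP-flanked FoxM1 alleles without Cre. Injury was made with 50 µl of 1.2% BaCl2 in PBS, injected along the tibialis anterior and gastrocnemius muscles, and uninjured mice were not given BaCl2. About 800 SCs per library were sorted by flow cytometry with antibodies to CD34 and α7-integrin, against CD45, Sca1, CD11b and CD31, so any other cell that passes this gate was sequenced with them. The other 6 libraries come from FoxM1-cKO mice (FoxM1fl/fl,Pax7Cre/+), uninjured and injured. They entered to choose the tested genes, to estimate the spread and to test whether the injury change differed between genotypes.

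SCs are the stem cells of skeletal muscle and lie between the myofibre and its basal lamina. In resting muscle they are quiescent, small and poor in RNA. After injury they leave quiescence, grow, build ribosomes and enter the cell cycle, and their daughters become myoblasts that fuse into new fibres, while immune cells, fibro-adipogenic progenitors and other resident cells gather around them. BaCl2 is a myotoxic salt that kills fibres and leaves SCs able to regenerate them.

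Expression is given as FPKM (fragments per kilobase of transcript, scaled to the mapped reads of the library), and 3 values in a row always belong to replicates 1, 2 and 3. Depth differed between the groups: the uninjured libraries held 174827 to 642010 reads by the size of the steps between low values, and the injured libraries 907562 to 1284058. They listed 1464 to 3423 and 4462 to 6579 genes above 0 FPKM. After all were thinned to 174827 reads the counts were 1464 to 2515 and 3260 to 4481 genes, so the injured libraries still held more. One predicted RNA, Gm23935, took 19.2% to 32.8% of the summed FPKM in uninjured and 35.2% to 48.9% in injured libraries. The libraries of a group were not independent in their values. Of 650 genes at 20 FPKM or more in uninjured 2 and at 0 in uninjured 3, 98.0% were above 0 in uninjured 1, at a median of 0.883 times their level. Of 352 genes the other way round, 94.3% were above 0, at 0.105 times. Injured 1 followed injured 2 and injured 3 likewise, at 0.676 and 0.322 times for 436 and 319 genes, with all and 99.4% above 0. FoxM1-cKO uninjured 2 showed the same pattern. These 3 libraries are called weighted-sum libraries below, and results are also given without them. Nothing in the labels says that replicates came from separate mice, so p-values measure only the spread between these libraries.

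The sorted identity could be checked only in part. Of 12 satellite cell markers, 10 are in the table, and 2, 1 and 1 of them were above 0 in the uninjured libraries against 5, 5 and 2 in the injured ones. Their summed level was 105, 128 and 48.9 FPKM in uninjured and 1407, 2655 and 11.1 FPKM in injured libraries, so injured 3 lay below every uninjured library. Fgfr4, a growth factor receptor of SCs, made up most of the sum in injured 1 and 2. Both antigens of the positive gate were listed at 0 in uninjured cells: Cd34, a sialomucin, stood at 2.55, 2.29 and 0 FPKM after injury, and Itga7, the α7-integrin chain, at 0 in all 3. Sdc4, a syndecan of the SC surface, was the only tested marker above 0 in every library, at 104, 128 and 48.9 FPKM and then 172, 269.9 and 10.8 FPKM (log2 difference -0.10, SE 2.15, adjusted p = 1). None of the 5 tested markers passed the test, and 3 rose without injured 3. Fewer cells of a type and less RNA per cell cannot be told apart in these bulk samples.

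The question was which genes changed in control SCs by 48 h post-injury. Of 4956 genes that reached 1 FPKM in 3 or more of the 12 libraries, 934 rose (18.8% of all tested) and 95 fell (1.92%) at an adjusted p under 0.05 (limma on log2(FPKM + 1), Benjamini-Hochberg adjustment over all tested genes, 3 against 3 libraries). Of the genes that rose, 686 (73.4%) were listed at 0 in all 3 uninjured libraries, against 2753 of all 4956 tested genes. Of those that fell, 47 were listed at 0 in all 3 injured ones, against 485 of all 4956. No fold is given for such genes. Values of the groups did not overlap for 856 of the 934 and 59 of the 95, against 33.2% of all tested genes with every injured value higher and 2.2% with every injured value lower. The distribution of the tested genes was shifted: their median difference was 1.51 on the log2 scale, so a difference of a list is read against 1.51 and not against 0. Both the share of genes that rose and this median depend on the filter, which counts FoxM1-cKO libraries too. With the same filter over the 6 FoxM1fl/fl libraries, 996 of 2353 tested genes rose and 76 fell, with a median of 2.32. Without a filter on low values the median was 0.00. Median-ratio scaling moved the median of the 4956 genes to 1.09 and quantile normalization moved it to 0.14. After quantile normalization 172 genes rose and 168 fell, and 50.6% of calls were then higher against 90.8%.

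The number of calls rested on few libraries. Without the weighted-sum libraries no gene passed the adjusted threshold by limma, with 608 genes higher and 46 lower at an unadjusted p under 0.05. All 934 and all 95 genes kept the sign of their difference in that fit, which was largely fixed in advance. The 686 and 47 genes at 0 throughout 1 group cannot turn their sign, and all were called from data that include the same libraries. Without injured 1 the counts were 364 higher and 25 lower, without uninjured 1 365 and 27, without uninjured 2 454 and 122, without uninjured 3 716 and 268, without injured 2 1057 and 42, and without injured 3 1429 and 51. Leaving out a FoxM1-cKO library gave 631 to 921 higher and 43 to 58 lower, the extremes being FoxM1-cKO uninjured 2 for both low counts and FoxM1-cKO injured 1 for both high ones, the latter tied with FoxM1-cKO injured 2 at 58. With the reads thinned to 1 depth, 657 rose and 52 fell, of which 618 and 46 were among those named above.

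**Figure D1:**
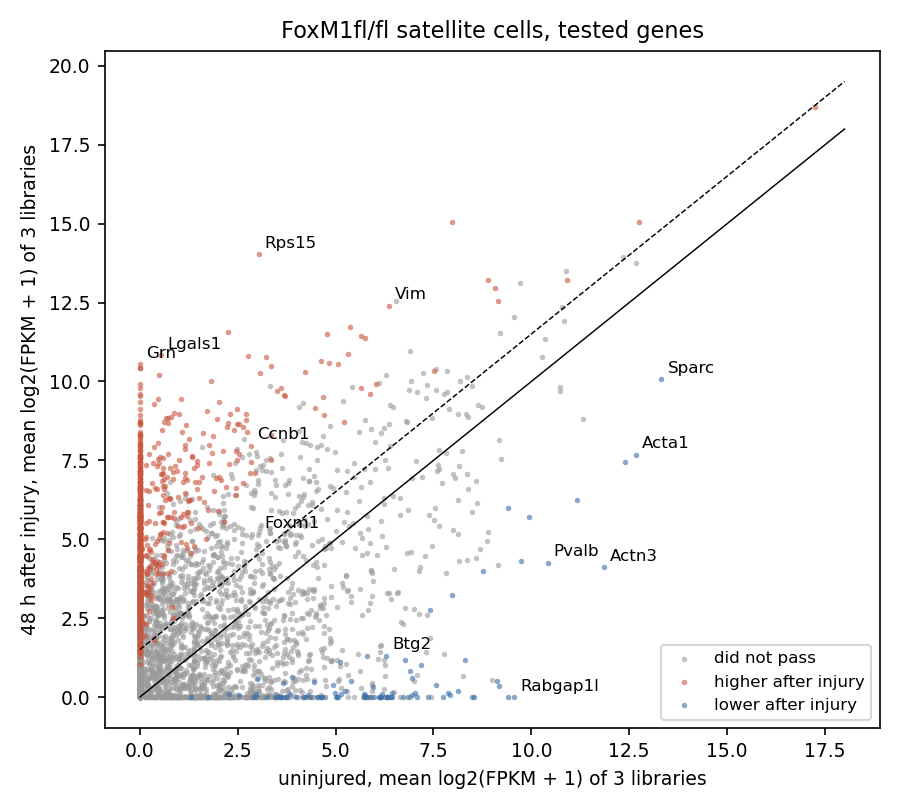
Mean log2(FPKM + 1) of the 3 uninjured (x axis) and 3 injured (y axis) FoxM1fl/fl libraries for each tested gene, red where higher and blue where lower after injury at an adjusted p under 0.05, grey otherwise. The solid line marks no difference and the dashed line the median difference of all tested genes (1.51). Many red points lie at 0 on the x axis, and 686 of the 934 genes that rose are there, against 2753 of all 4956 tested genes.

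**Figure D2:**
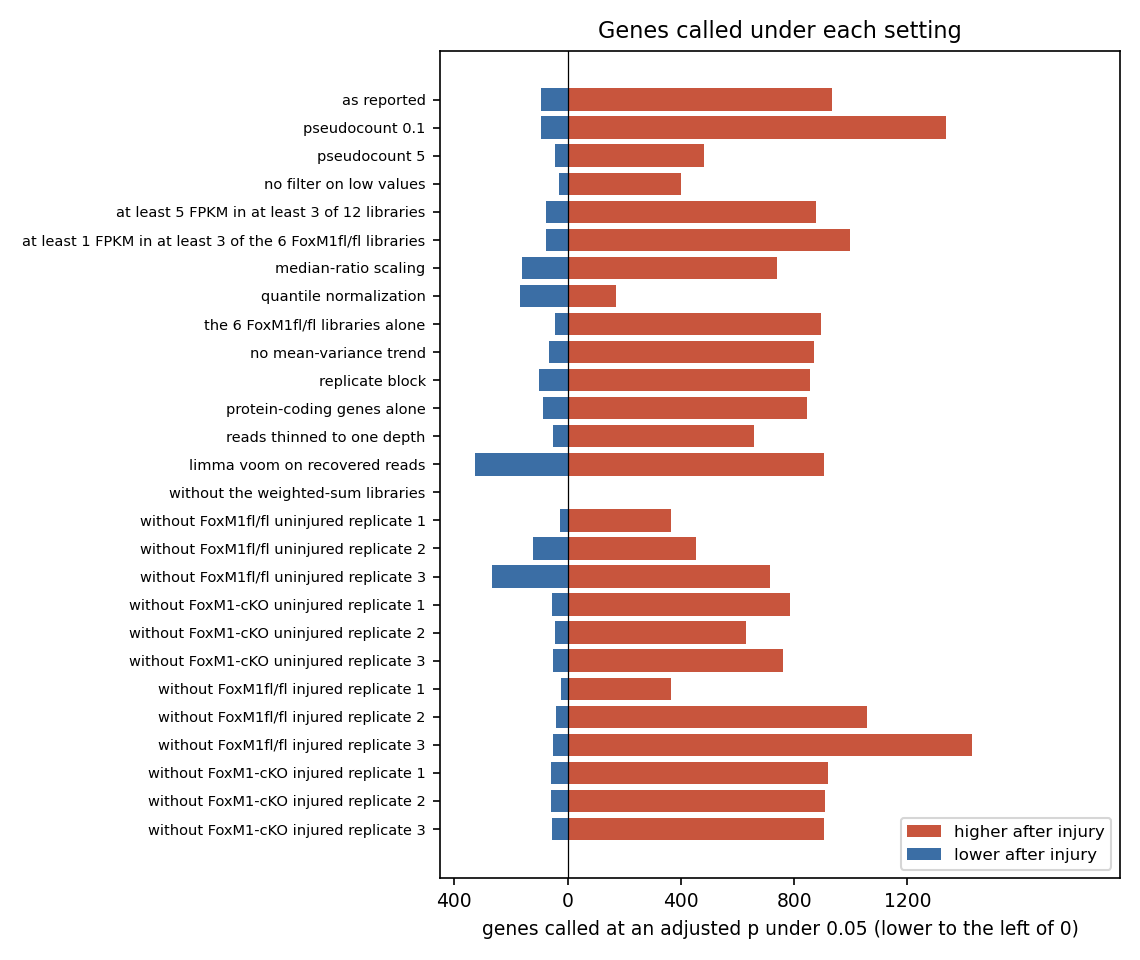
Number of genes called higher (red, to the right of 0) and lower (blue, to the left of 0) after injury under each processing setting and with each library left out. The 934 higher and 95 lower genes reported fall to 0 without the weighted-sum libraries, and quantile normalization gives 172 and 168. Array weights, with 3433 and 788, are not drawn.

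Among genes above 0 FPKM in at least 2 uninjured libraries, the largest increases included ribosomal protein genes and single genes with other roles. Rps15, a protein of the small ribosomal subunit (ENSMUSG00000063457, chromosome 10, 80292453 to 80294114 of mm10), went from 26.2, 19.1 and 0 FPKM to 31193, 44598 and 3334 FPKM (log2 difference 10.99, SE 1.51, adjusted p = 0.00117). Myl12a, a regulatory light chain of non-muscle myosin, went from 1.72, 0.804 and 20.7 FPKM to 6488, 9210 and 476 FPKM (log2 difference 9.33, SE 2.04, adjusted p = 0.00803). In both, injured 3 was far below injured 1 and 2 and still above every uninjured library. Timm17a, a subunit of the translocase that imports proteins into mitochondria, went from 1.14, 0.856 and 0 FPKM to 613, 836 and 188 FPKM (adjusted p = 0.00489). Crip1, a small LIM-domain protein, went from 4.6, 0 and 53.8 FPKM to 1857, 747 and 4080 FPKM (adjusted p = 0.00523). Ctsd, the lysosomal protease cathepsin D, went from 1.57, 0.732 and 0 FPKM to 1098, 1459 and 42 FPKM (adjusted p = 0.00232). Injured 3 was the highest library for Crip1 and the lowest of the injured ones for Timm17a and Ctsd. Rps19, Eef1g, Pabpc1 and Nudt4 were also among the 10 largest of these increases, with differences of 7.34 to 8.10 on the log2 scale. Pabpc1, the poly(A)-binding protein, reached 7502, 11104 and 62 FPKM from 3.43, 6.94 and 21.6 FPKM (adjusted p = 0.009) and lost its call without injured 1 (adjusted p = 0.0583). Nudt4, a hydrolase of diphosphoinositol polyphosphates, reached 525, 43.9 and 1679 FPKM from 1.04, 0 and 3.56 FPKM (adjusted p = 0.00348). Without the weighted-sum libraries the differences of these 9 genes ranged from 5.96 to 11.41.

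The most abundant genes among those listed at 0 in all 3 uninjured libraries covered growth factors, membrane proteins and RNA processing. Grn encodes progranulin, a secreted growth factor that also acts in lysosomes, and stood at 1586, 536 and 3943 FPKM after injury (adjusted p = 0.0009, the smallest of all tested genes, tied with Chrna1, Exosc4, Tyrobp and a predicted gene). Ifitm3, an interferon-induced membrane protein, stood at 1031, 323 and 2745 FPKM (adjusted p = 0.00202). Fam162a, a mitochondrial protein induced by hypoxia, stood at 1678, 55.2 and 5032 FPKM (adjusted p = 0.00151), and Cuta, a protein implicated in copper tolerance in bacteria, at 1587, 48.8 and 5271 FPKM (adjusted p = 0.00182). These 4 genes were highest in injured 3 and lowest in injured 2. Cnpy2, an endoplasmic reticulum protein, had the opposite order, at 1678, 2614 and 3.19 FPKM (adjusted p = 0.0294), and lost its call without uninjured 1, 2 or 3, or injured 1 or 2 (adjusted p = 0.0609 to 0.135). Bud31, a splicing factor, stood at 958, 0.839 and 3002 FPKM (adjusted p = 0.0234) and lost its call without uninjured 1 or 2, or injured 1 or 3 (adjusted p = 0.0598 to 0.111). Chrna1 is described with its group.

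The largest decreases among genes above 0 FPKM in at least 2 injured libraries were led by a signalling factor and by fibre genes. Stat3, the transcription factor downstream of interleukin-6 receptors, dropped from 427, 333 and 1366 FPKM to 0.516, 0 and 0.365 FPKM (log2 difference -8.83, SE 2.16, adjusted p = 0.0139), and lost its call without injured 1 (adjusted p = 0.0548). Synpo2, an actin-binding protein of the Z-disc, went from 196, 37.6 and 1642 FPKM to 0.0848, 0.169 and 0 FPKM (adjusted p = 0.0377), and its call was lost without uninjured 1 or 3, injured 1, 2 or 3, or FoxM1-cKO injured 3 (adjusted p = 0.0546 to 0.117). In both genes each uninjured value exceeded each injured one by a wide margin. Ppp2r5e, a regulatory subunit of protein phosphatase 2A, fell from 165, 6.15 and 1627 FPKM to 0.487, 1.29 and 0 FPKM (adjusted p = 0.0134, lost without uninjured 1 or injured 1 (adjusted p = 0.0536 to 0.0561)). Mrps14, a protein of the mitochondrial small ribosomal subunit, fell from 215, 3.12 and 1932 FPKM to 1.82, 1.04 and 0 FPKM (adjusted p = 0.0268, lost without uninjured 1 or 3, or injured 1 or 3 (adjusted p = 0.0565 to 0.0994)). Hsd11b1, the enzyme that regenerates active glucocorticoid, fell from 101, 13.4 and 870.4 FPKM to 2.37, 2.36 and 0 FPKM (adjusted p = 0.0105). Synpo2, Ppp2r5e, Mrps14 and Hsd11b1 were each highest in uninjured 3, the shallowest of the 6 libraries. Actn3, Pvalb, Tnmd and Fmod are also among the 10 largest of these decreases and are given with the fibre and tendon genes.

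Genes listed at 0 in all 3 injured libraries had varied roles. Rabgap1l, a GTPase-activating protein for Rab proteins, stood at 2956, 3312 and 42.4 FPKM in uninjured cells (adjusted p = 0.00182). Adamts9, a secreted metalloprotease that cleaves proteoglycans, stood at 302, 9.91 and 2974 FPKM (adjusted p = 0.00605), and Abhd16a, a phosphatidylserine lipase, at 109, 5.61 and 862 FPKM (adjusted p = 0.011). Uninjured 3 was the highest for Adamts9 and Abhd16a and the lowest for Rabgap1l. Faim, an inhibitor of Fas-induced apoptosis, stood at 103, 121 and 49.7 FPKM (adjusted p = 0.00111), and Sh3rf2, an SH3 and RING finger protein, at 62.5, 60.6 and 38.2 FPKM (adjusted p = 0.00114). Rmrp, the RNA of the RNase MRP complex, stood at 41.5, 55.4 and 142 FPKM (adjusted p = 0.0109), and did not pass with the reads thinned (adjusted p = 0.133). Mylf-ps, a processed pseudogene of a fast myosin light chain gene whose reads cannot be told from its parent gene with certainty, stood at 19.8, 7.4 and 190.2 FPKM (adjusted p = 0.0129), and its call was lost without injured 1 (adjusted p = 0.0575) and with the reads thinned (adjusted p = 0.274).

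Many genes of the cytosolic ribosome rose and none fell. All 83 measured ribosomal proteins were tested, 45 rose and 0 fell, against 18.8% and 1.92% of all tested genes. Their median difference was 4.52 on the log2(FPKM + 1) scale, as are all list medians below, and 64 of 83 lay above the median of all genes. Their summed level was 37725, 33112 and 70544 FPKM in uninjured and 145135, 140616 and 155374 FPKM in injured libraries, with no overlap. This was 6.26%, 5.45% and 9.76% of all FPKM in uninjured and 14.4%, 13.6% and 16.7% in injured libraries, a smaller change than the median of single genes. Of the 83, 68, 43 and 60 were above 0 in uninjured libraries and 82 in each injured one, so the median includes many values of 0. Rpl29, a protein of the large subunit, was measured in every library and went from 9.85, 3.69 and 20.3 FPKM to 1411, 1589 and 1331 FPKM (log2 difference 7.13, SE 1.04, adjusted p = 0.00141). Rps19, a small subunit protein mutated in Diamond-Blackfan anaemia in humans, went from 1.25, 0.586 and 0 FPKM to 396, 366 and 509 FPKM (log2 difference 8.10, SE 1.31, adjusted p = 0.00188). The injured values of both genes were close to each other. Rpl13a and Rps20 were listed at 0 in all uninjured libraries and stood at 639, 897 and 119 FPKM (adjusted p = 0.0012) and 138, 178 and 61.2 FPKM (adjusted p = 0.00141). Without the weighted-sum libraries the median of the list was 4.62 and 76 of 83 differences were above 0. Of the list, 44 rose with the reads thinned to 1 depth (called thinning below), 17 after quantile normalization, 27 without injured 1 and 29 without uninjured 1. Counts given below for a list after thinning, or without a library, are of its genes that rose, and a library is named where leaving it out moved the count by over 1.5 times. Each list count below is read against the 18.8% of all tested genes that rose and the 1.92% that fell. A gene at 0 in all 3 uninjured libraries could not fall, so a count of 0 that fell was in part fixed in advance. Of all 4956 tested genes 2753 were at 0 in this way, and of the 83 ribosomal proteins 10. Many ribosomal protein genes have processed pseudogenes, and reads shared with them cannot be assigned with certainty.

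Part of the machinery that builds ribosomes and loads them with mRNA rose as well. Of 41 tested ribosome biogenesis genes, 14 rose and 0 fell (median difference 1.91, 7 after thinning, 2 higher and 1 lower after quantile normalization). Of the 41, 32 were at 0 in all 3 uninjured libraries, so could not fall. Nhp2, a protein of box H/ACA small nucleolar particles, and Npm1, the nucleolar chaperone nucleophosmin, were listed at 0 in uninjured cells and stood at 103, 95.7 and 87.8 FPKM (adjusted p = 0.00247) and 21, 25.3 and 8.1 FPKM (adjusted p = 0.00858). Exosc4, part of the RNA exosome, stood at 856, 135 and 2449 FPKM (adjusted p = 0.0009), and Ddx56, a nucleolar RNA helicase, at 7.18, 5.57 and 4.51 FPKM (adjusted p = 0.00491). Of 44 translation factors, 19 rose and 1 fell (median 3.21, 14 after thinning, 4 higher and 1 lower after quantile normalization), and 22 of the 44 were at 0 in all 3 uninjured libraries. Eef1g, the gamma subunit of elongation factor 1, went from 1.79, 0.836 and 0 FPKM to 443, 218 and 1037 FPKM (log2 difference 8.08, SE 1.08, adjusted p = 0.00117), and Eef1b2, its nucleotide exchange subunit, from 12, 19.3 and 5.9 FPKM to 956, 1101 and 652 FPKM (log2 difference 6.18, SE 0.98, adjusted p = 0.00182). Eif5a, which relieves stalled ribosomes, stood at 55.4, 38.5 and 104 FPKM (adjusted p = 0.00225) and Eif4ebp1, the repressor of cap binding that mTOR phosphorylates, at 71.9, 8.97 and 204 FPKM (adjusted p = 0.00777), from 0 in all uninjured libraries. The single translation factor called lower was Eif4ebp2, a paralogue of Eif4ebp1, from 34.5, 1.89 and 306 FPKM to 0.27, 0 and 0 FPKM (adjusted p = 0.0411). It was chosen after its values were seen, and its call was lost without uninjured 1 or 3, injured 1, 2 or 3, or FoxM1-cKO uninjured 1, 2 or 3 (adjusted p = 0.0558 to 0.117). The count of biogenesis genes that rose was 4 without uninjured 2 or injured 1, 5 without uninjured 1, 7 without uninjured 3, or FoxM1-cKO uninjured 2 or 3, and 8 without FoxM1-cKO uninjured 1. That of translation factors was 6 without injured 1, 8 without uninjured 1 or 2, and 11 without FoxM1-cKO uninjured 2.

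Ribosomes inside mitochondria were mixed: of 49 tested mitochondrial ribosomal proteins, 13 rose and 3 fell (median 1.93, 8 higher and 1 lower with the reads thinned, 2 higher and 3 lower after quantile normalization). Of the 49, 34 were at 0 in all 3 uninjured libraries, so could not fall. Mrpl33 went from 1.22, 0.568 and 0 FPKM to 199, 93.8 and 375 FPKM (log2 difference 6.99, SE 1.49, adjusted p = 0.00728). Mrps24, Mrps18a and Mrpl28, listed at 0 in uninjured cells, stood at 115, 61 and 300.1 FPKM (adjusted p = 0.00523), 30.9, 22.8 and 19.4 FPKM (adjusted p = 0.00599) and 28.3, 30.5 and 8.41 FPKM (adjusted p = 0.00872). The 3 that fell were Mrps14, given above, and Mrpl10 and Mrps11, named after their values were seen. Mrps11 made up most of the summed level of the list in uninjured 1 and 2, at 17101, 18626 and 0 FPKM before injury and 0 in all 3 after (adjusted p = 0.044), and its call was lost without uninjured 1 or 2, injured 1, 2 or 3, FoxM1-cKO uninjured 1, 2 or 3, or FoxM1-cKO injured 2 or 3 (adjusted p = 0.0564 to 0.161). That of Mrpl10 was lost without uninjured 1 or 3, injured 1 or 2, or FoxM1-cKO uninjured 2 (adjusted p = 0.0517 to 0.13). The number of genes that rose was 5 without uninjured 1, 6 without injured 1, 7 without uninjured 2, and 21 without injured 3, and 0 fell without uninjured 1 or injured 1.

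A short sequence was found in a larger share of the promoters of translation genes than of all promoters, although most translation gene windows lacked it. RefSeq windows on GRCm38.p6 that run from 250 bases before to 50 after each start were searched on both strands for CCGGAAG, the core bound by ETS factors. It was present in 35.1% of 74 windows of ribosomal protein genes, 33.3% of 48 windows of translation factors, 38.6% of 44 windows of proteasome genes, 3.12% of 32 windows of myofibre genes and 8.86% of all 32851 windows. The stretch from 100 bases before to 30 after the start of Eef1b2 is shown as an example that holds the sequence (chr1:63176731-63176860, plus strand, motif in capitals).
Eef1b2: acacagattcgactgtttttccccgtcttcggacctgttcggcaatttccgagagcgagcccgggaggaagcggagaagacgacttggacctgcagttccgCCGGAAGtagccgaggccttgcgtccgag
Here the motif lies just after the start. A match is a description of letters and was not tested for binding.

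**Figure D3:**
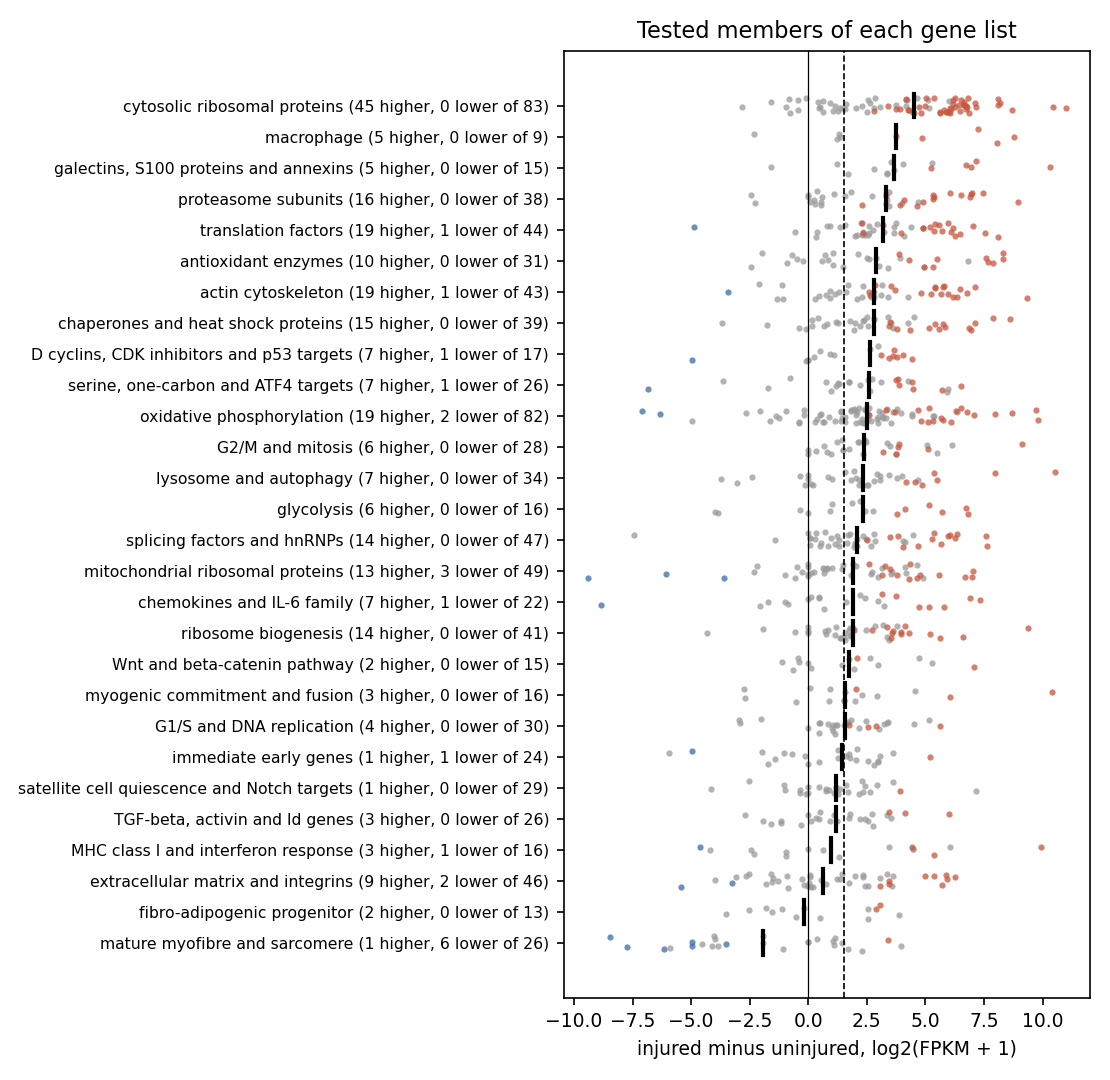
Difference between injured and uninjured FoxM1fl/fl libraries on the log2(FPKM + 1) scale for each tested member of each list with at least 9 tested members (red higher and blue lower at an adjusted p under 0.05, grey otherwise). Black bars are list medians, the dashed line is the median of all tested genes (1.51) and the solid line is 0. Cytosolic ribosomal proteins have the highest list median (4.52) and mature myofibre genes the lowest (-1.92).

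Part of the protein turnover and folding genes rose, and few of these calls were made after quantile normalization. Of 38 tested proteasome subunits, 16 rose and 0 fell (median 3.33, 16 after thinning, 4 higher and 0 lower after quantile normalization, 9 without injured 1). Of the 38, 25 were at 0 in all 3 uninjured libraries, so could not fall. Psmd8, a subunit of the regulatory lid, went from 1.68, 0 and 0 FPKM to 683, 716 and 671 FPKM (log2 difference 8.96, SE 1.37, adjusted p = 0.00177), with injured values that were nearly equal. Psmb4, a core subunit, went from 0, 1.32 and 4.83 FPKM to 466, 708 and 72.7 FPKM (log2 difference 6.93, SE 1.20, adjusted p = 0.00254). The core subunits Psma6 and Psma3, at 0 in uninjured cells, stood at 220.1, 49.3 and 508 FPKM (adjusted p = 0.00177) and 36.2, 28.7 and 56.5 FPKM (adjusted p = 0.00202). Among 39 chaperones, 15 rose and 0 fell (median 2.79, 14 after thinning, 3 higher and 0 lower after quantile normalization, 5 without injured 1, 7 without uninjured 1, and 9 without uninjured 2). Hsp90ab1, the constitutive cytosolic HSP90, went from 21.1, 14.8 and 65.8 FPKM to 1599, 1875 and 1196 FPKM (log2 difference 5.74, SE 1.09, adjusted p = 0.00434). Hspa8, the constitutive HSP70, went from 1.05, 2.47 and 7.25 FPKM to 460.5, 166 and 1183 FPKM (log2 difference 6.86, SE 1.18, adjusted p = 0.00248). Cct5, part of the ring that folds actin and tubulin, and Ppia, cyclophilin A, stood at 116, 59.7 and 258 FPKM (adjusted p = 0.00482) and 392, 168 and 891 FPKM (adjusted p = 0.00117) from 0. Of 47 splicing factors and hnRNPs, 14 rose and 0 fell (median 2.08, 11 after thinning, 3 higher and 0 lower after quantile normalization, 8 without uninjured 1 and 9 without injured 1). Of the 47, 22 were at 0 in all 3 uninjured libraries. Hnrnpa1, a splicing repressor, went from 2.6, 0 and 26.8 FPKM to 368, 341 and 436 FPKM (log2 difference 6.36, SE 1.28, adjusted p = 0.00558), and Hnrnpab from 0, 0.657 and 0 FPKM to 148, 206 and 24.2 FPKM (adjusted p = 0.00434). Rbm39 and Srsf2, both splicing factors rich in arginine and serine, stood at 65.2, 97.6 and 35.3 FPKM (adjusted p = 0.00225) and 41.9, 10.2 and 143 FPKM (adjusted p = 0.00491) from 0.

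Energy metabolism moved less uniformly. Of 82 oxidative phosphorylation genes, 19 rose, a share of the list near the 18.8% of all genes, and 2 fell (median 2.49, 14 and 1 with the reads thinned, 7 higher and 1 lower after quantile normalization, 7 without uninjured 1 or injured 1). Cox5b, a subunit of cytochrome c oxidase, went from 0, 1.8 and 0 FPKM to 1154, 953 and 1480 FPKM (log2 difference 9.71, SE 1.62, adjusted p = 0.00221). Cox7a2l, a factor that joins complexes III and IV, stood at 978, 1086 and 649 FPKM (adjusted p = 0.00117), and the complex I subunits Ndufa9 and Ndufs5 at 558, 654 and 192 FPKM (adjusted p = 0.00182) and 79.2, 34.4 and 182 FPKM (adjusted p = 0.00182), all from 0. Of the 2 that fell, Cox7a1, the muscle form of a cytochrome c oxidase subunit, went from 223, 0 and 2229 FPKM to 0 in all 3 (adjusted p = 0.0474, lost without uninjured 1 or 3, injured 1, 2 or 3, FoxM1-cKO uninjured 1, 2 or 3, or FoxM1-cKO injured 1, 2 or 3 (adjusted p = 0.0583 to 0.147)) and was named after its values were seen. Of 16 glycolysis genes, 6 rose and 0 fell (median 2.32, -0.10 after quantile normalization). The number that rose was 2 without uninjured 1 or injured 1 and 3 without uninjured 2, with 2 higher and 1 lower after quantile normalization. Eno1, Pgam1 and Pgk1, enzymes of the later steps of the pathway, were at 0 in uninjured cells and stood at 119, 136 and 72.8 FPKM (adjusted p = 0.00117), 65.6, 60.8 and 32.5 FPKM (adjusted p = 0.00157) and 109.9, 87 and 149.7 FPKM (adjusted p = 0.0135). The call of Pgk1 was lost without uninjured 1 or injured 1 (adjusted p = 0.0517 to 0.0561). Ldha, lactate dehydrogenase A, went from 31.2, 22.3 and 170.2 FPKM to 1226, 1666 and 333 FPKM (log2 difference 4.13, SE 1.13, adjusted p = 0.0239), lost without uninjured 1 or 2, or injured 1 or 2 (adjusted p = 0.0636 to 0.108). Of 31 antioxidant genes, 10 rose and 0 fell (median 2.89, 7 after thinning, 4 higher and 0 lower after quantile normalization, 4 without injured 1, 5 without uninjured 1, and 6 without uninjured 2). Txn1, thioredoxin, went from 1.58, 0 and 0 FPKM to 333, 61.5 and 865 FPKM (log2 difference 7.58, SE 1.30, adjusted p = 0.00248). The peroxide-reducing enzymes Prdx2, Gpx1 and Prdx6 stood at 238, 296 and 186 FPKM (adjusted p = 0.0012), 193, 189.6 and 232 FPKM (adjusted p = 0.00226) and 19.2, 22.2 and 15.9 FPKM (adjusted p = 0.00793) from 0.

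Cyclin B1 rose after injury, and few other mitotic genes passed the test. Of 53 genes of the G2/M and mitosis list in the table, 32, 35 and 19 were above 0 in the injured libraries, and H2afz, the histone variant H2A.Z, made up 54.1%, 58.0% and 12.6% of their summed FPKM. Of 28 tested, 6 rose and 0 fell, a share near the 18.8% of all genes, and 26 had a higher mean after injury (median 2.37). Of the 28, 23 were at 0 in all 3 uninjured libraries, so could not fall or have a lower mean. The number that rose was 2 after thinning, 1 after quantile normalization (H2afz), 3 without uninjured 1 or 2, or injured 1, and 10 without injured 3. The median was 1.99 without the weighted-sum libraries. Ccnb1, cyclin B1, which drives entry into mitosis (ENSMUSG00000041431, chromosome 13, 100778650 to 100786570 of mm10), went from 6.02, 6.88 and 5.67 FPKM to 279.9, 425 and 130.3 FPKM (log2 difference 5.13, SE 1.03, adjusted p = 0.00558). Every injured value lay far above every uninjured one, and the difference was 5.03 without the weighted-sum libraries. After quantile normalization the difference of Ccnb1 was 2.92 and did not pass (limma, adjusted p = 0.0986). The uninjured values of Ccnb1 rest on about 9, 11 and 2 reads. One of its 3 uninjured values, that of replicate 3, was not a whole number of reads at the length of its longest transcript. Cdc20, the activator of the anaphase-promoting complex in mitosis, stood at 16.5, 16.1 and 9.22 FPKM from 0 (adjusted p = 0.00946), and after thinning it did not pass (adjusted p = 0.155). H2afz stood at 1080, 1624 and 97.9 FPKM (adjusted p = 0.00117), and Cdca8, the chromosomal passenger borealin, at 18.1, 24.8 and 4.92 FPKM (adjusted p = 0.023, lost without uninjured 1 or 2, or injured 1 (adjusted p = 0.064 to 0.0894), and adjusted p = 0.0721 with the reads thinned). Cdk1, the kinase partner of cyclin B1, stood at 254, 373 and 0 FPKM from 0 and did not pass (adjusted p = 0.0532), injured 3 being at 0. Foxm1, the forkhead factor that activates mitotic genes, stood at 5.48, 8.95 and 7.38 FPKM and then 32.9, 29.4 and 42 FPKM. These values did not overlap, and the difference did not pass (log2 difference 2.12, SE 0.86, adjusted p = 0.0844) and was -0.77 after quantile normalization. Of the 3 uninjured values of Foxm1, 2 were not whole reads. Mki67, the proliferation antigen Ki-67, was listed at 0.388, 0.31 and 0 FPKM after injury and at 0 before, under the filter on low values, and Ccnb2, Ccnd3, Ccng2 and Fzr1 were listed at 0 in all 6 libraries.

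**Figure D4:**
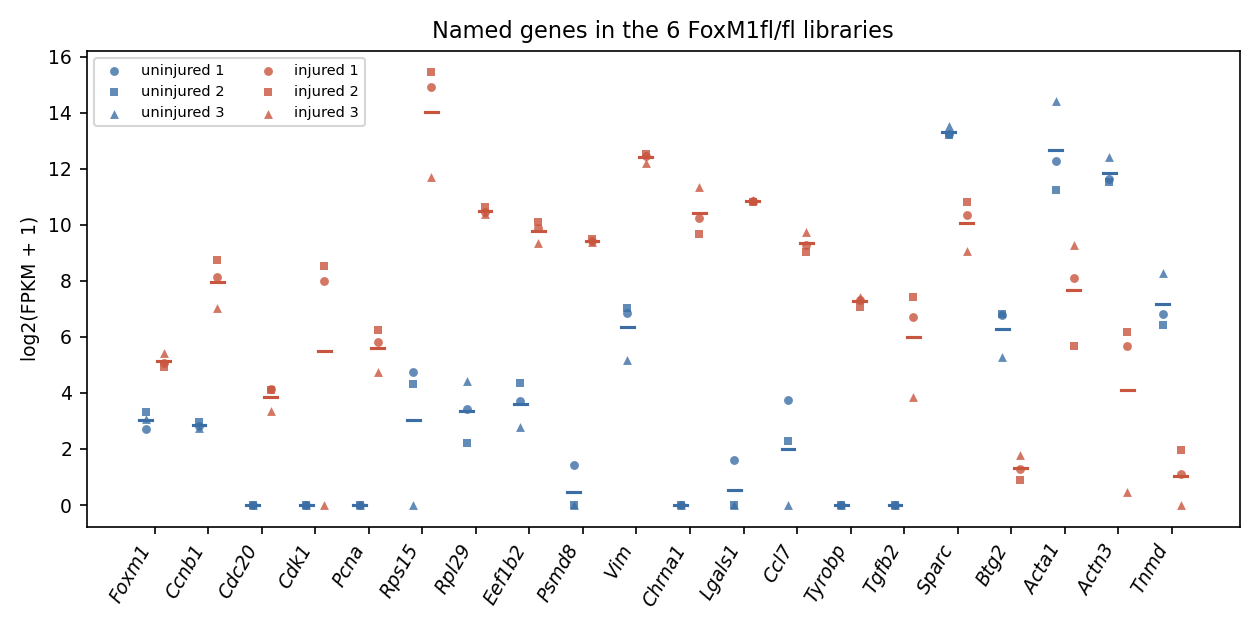
Level of 20 named genes on the log2(FPKM + 1) scale in the uninjured (blue) and injured (red) FoxM1fl/fl libraries, with replicate 1 as a circle, 2 as a square and 3 as a triangle, and the group mean as a bar. From Foxm1 to Tgfb2 the injured means lie higher, with injured 3 at 0 for Cdk1, and from Sparc to Tnmd every uninjured value lies above every injured one.

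The promoters of the mitotic genes carry the letters known from cell cycle genes. CCAAT, bound by NF-Y, was present on either strand in 78.4% of 51 windows of the G2/M list and in 37.4% of all windows. TTTGAA, the core of the cell cycle genes homology region, was present in 70.6% of the 51 and in 17.9% of all. These shares describe the list and not the response. The stretches of 3 genes that rose are shown from 100 bases before to 30 after the start, all on the minus strand, with both motifs in capitals: Cdc20 at chr4:118437314-118437443, Cdca8 at chr4:124936888-124937017 and Ccnb1 at chr13:100786457-100786586.
Cdc20: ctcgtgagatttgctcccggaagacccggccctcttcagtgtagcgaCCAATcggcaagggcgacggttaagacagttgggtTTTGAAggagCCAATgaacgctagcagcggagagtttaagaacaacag
Cdca8: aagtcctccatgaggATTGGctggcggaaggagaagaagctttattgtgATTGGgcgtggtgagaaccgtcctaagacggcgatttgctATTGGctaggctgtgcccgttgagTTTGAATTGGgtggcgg
Ccnb1: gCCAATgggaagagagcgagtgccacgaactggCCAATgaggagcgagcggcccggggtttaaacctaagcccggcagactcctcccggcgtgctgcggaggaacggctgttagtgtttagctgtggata
In Cdc20 a TTTGAA and a CCAAT lie close together just before the start, in Cdca8 the CCAAT box is on the opposite strand and reads ATTGG, overlapping TTTGAA at its last copy, and in Ccnb1 only CCAAT is found.

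DNA replication and growth control showed smaller groups of changes. Of 30 G1/S and replication genes, 4 rose and 0 fell (median 1.55, 2 after thinning, 0 higher and 0 lower after quantile normalization, 2 without uninjured 1, 2 or 3, injured 1, FoxM1-cKO uninjured 1, 2 or 3, or FoxM1-cKO injured 3, 8 without injured 3, and 9 without injured 2), a share below that of all genes. Pcna, the sliding clamp of DNA polymerases, stood at 55, 74.4 and 26.1 FPKM from 0 (adjusted p = 0.00855). Mcm2, a subunit of the replicative helicase, stood at 5.36, 0.446 and 20.5 FPKM from 0 (adjusted p = 0.047), and Rpa1, the single-strand binding protein, at 14.6, 24.2 and 0 FPKM (adjusted p = 0.0488). Both of these calls were weak: Mcm2 passed in 2 and Rpa1 in 1 of the 12 fits that each left out a library, with adjusted p up to 0.137 and 0.176 without injured 1. Fen1, the flap endonuclease, stood at 21, 34.1 and 0.464 FPKM and did not pass (adjusted p = 0.0511). Of 17 D cyclins, CDK inhibitors and p53 targets, 7 rose and 1 fell (median 2.65, 0 higher and 1 lower after quantile normalization, 1 without uninjured 2 or injured 1, 2 without uninjured 1, 3 without FoxM1-cKO uninjured 2, and 4 without uninjured 3). Mdm2, the ubiquitin ligase for p53, stood at 38.7, 57 and 3.5 FPKM from 0 (adjusted p = 0.0108). Cdk4, the partner of D cyclins, stood at 14.1, 5.69 and 24.7 FPKM from 0 (adjusted p = 0.0228, lost without uninjured 1 or 2, or injured 1 (adjusted p = 0.0599 to 0.0859)), and Ccng1, a p53 target, went from 0.948, 0 and 0 FPKM to 24.2, 3.99 and 69.3 FPKM (adjusted p = 0.0187, lost without uninjured 2 or injured 1 (adjusted p = 0.0623 to 0.0652)). Btg2, an antiproliferative factor that is both a p53 target and an immediate early gene, dropped from 110.5, 111 and 37.5 FPKM to 1.42, 0.852 and 2.41 FPKM (log2 difference -4.98, SE 1.02, adjusted p = 0.00599).

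SC identity and myogenic genes gave few calls. Of 29 quiescence and Notch genes, 1 rose and 0 fell, with a median difference of 1.17 that became -0.11 after quantile normalization. The number that rose was 0 without uninjured 1 or injured 1, 2 without injured 2, 3 without uninjured 3, and 6 without injured 3, and 2 fell without uninjured 3. The gene that rose with all libraries was Cd82, a tetraspanin of SCs, at 19.2, 2.99 and 43.5 FPKM from 0 (adjusted p = 0.0155, lost without uninjured 1 or injured 1 (adjusted p = 0.064 to 0.0652)). Met, the receptor for hepatocyte growth factor, and Lix1 stood at 8.25, 15 and 0 FPKM and 7.51, 9.75 and 0 FPKM from 0 and did not pass (adjusted p = 0.0568 and 0.0609). Foxo3, a factor that maintains quiescence, stood at 73.4, 77.3 and 0 FPKM in uninjured cells and at 0 in all 3 after injury, and did not pass (adjusted p = 0.0619). For these 3 genes the higher group includes a library at 0. Fgfr4 showed the same at a higher level, with 1213, 2346 and 0 FPKM from 0 and no call (adjusted p = 0.0624). Of 16 commitment and fusion genes, 3 rose, near the share of all genes, and 0 fell (median 1.57, 2 higher and 1 lower after quantile normalization, 5 without injured 2 and 6 without injured 3). Vim, the intermediate filament vimentin of proliferating myoblasts, went from 115, 132 and 35.2 FPKM to 5619, 5968 and 4778 FPKM (log2 difference 6.05, SE 0.82, adjusted p = 0.00117). Chrna1, the α subunit of the muscle acetylcholine receptor, which myoblasts induce as they differentiate, stood at 1225, 809 and 2598 FPKM from 0 (adjusted p = 0.0009). Eya1, a transcriptional cofactor of muscle progenitors, went from 3.05, 0.357 and 0 FPKM to 6.43, 5.17 and 7.07 FPKM (log2 difference 2.02, SE 0.66, adjusted p = 0.0464), with a difference of -0.51 after quantile normalization and no call without uninjured 2 or 3, injured 1, FoxM1-cKO uninjured 1, 2 or 3, or FoxM1-cKO injured 2 (adjusted p = 0.0502 to 0.137). Ncam1, an adhesion molecule of myoblasts, stood at 8.44, 11.8 and 0 FPKM from 0 and did not pass (adjusted p = 0.0576).

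Immediate early genes, which dissociation of muscle can itself induce in SCs, gave 1 call in each direction. Of 24 tested, 1 rose and 1 fell (median 1.44, and -0.34 after quantile normalization). The number that rose was 0 without uninjured 1 or 2, or injured 1, 2 without injured 2, or FoxM1-cKO injured 1 or 3, and 3 without uninjured 3 or injured 3, and 2 fell without uninjured 2. With quantile normalization 0 rose and 3 fell, and with median-ratio scaling 1 rose and 3 fell. Ier5 stood at 54.8, 4.52 and 157 FPKM from 0 (adjusted p = 0.0205, lost without uninjured 1 or 2, or injured 1 (adjusted p = 0.0536 to 0.0879)), and Btg2 fell. Nr4a1, an orphan nuclear receptor, was listed at 159, 0 and 1420 FPKM and at 0 in all 3 after injury, and did not pass (adjusted p = 0.0505). Myc, the growth factor-induced activator of ribosome genes, stood at 8.34, 2.33 and 14.6 FPKM from 0 and did not pass (adjusted p = 0.0517).

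Part of the genes of the actin cytoskeleton rose, as did part of the calcium-binding and galectin families. Of 43 actin genes, 19 rose and 1 fell (median 2.82, 14 after thinning, 5 higher and 1 lower after quantile normalization, 8 without uninjured 1 and 9 without injured 1). Arpc4, Actr3 and Actr2, subunits of the Arp2/3 complex that branches actin filaments, stood at 135, 171 and 111 FPKM (adjusted p = 0.00117), 70.0, 34.3 and 149.9 FPKM (adjusted p = 0.00182) and 90.0, 119 and 13.3 FPKM (adjusted p = 0.00235) from 0. Brk1, part of the WAVE complex that activates Arp2/3, stood at 45.6, 32.7 and 46.3 FPKM from 0 (adjusted p = 0.00431). One gene dropped, Tpm1, a tropomyosin that muscle fibres also express, from 650.5, 566 and 845 FPKM to 69.4, 60.9 and 58.3 FPKM (adjusted p = 0.0108), named after its values were seen. Of 15 galectins, S100 proteins and annexins, 5 rose and 0 fell, against 18.8% and 1.92% of all tested genes (median 3.67, 4 higher and 0 lower after quantile normalization, 8 without injured 3). Lgals1, galectin-1, went from 2.08, 0 and 0 FPKM to 1829, 1797 and 1873 FPKM (log2 difference 10.30, SE 1.47, adjusted p = 0.00141), with nearly equal injured values. Anxa1, a phospholipid-binding protein that dampens inflammation, stood at 109.5 and 105 FPKM in injured 1 and 2 and just below them in injured 3, from 0 (adjusted p = 0.00177). Anxa7 and Lgals3, galectin-3, stood at 152, 29.2 and 394 FPKM (adjusted p = 0.00182) and 182, 31.8 and 481 FPKM (adjusted p = 0.00487) from 0, highest in injured 3.

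Extracellular matrix genes changed in both directions. Of 46 tested genes, 9 rose, a share near the 18.8% of all genes, and 2 fell, with a median difference of 0.64 that became -0.55 after quantile normalization, where 1 rose and 4 fell. The number that rose was 3 without uninjured 1 or 2, or injured 1, and 6 fell without uninjured 3. Fn1, fibronectin, which SCs deposit in early regeneration, went from 0.401, 0 and 2.06 FPKM to 133, 45 and 315 FPKM (log2 difference 6.26, SE 1.25, adjusted p = 0.00558). Postn, periostin, went from 0, 0 and 3.29 FPKM to 57.8, 60.5 and 38 FPKM (log2 difference 5.0, SE 1.05, adjusted p = 0.00676), and Spp1, osteopontin, stood at 62.6, 77.5 and 42.4 FPKM from 0 (adjusted p = 0.0018). Sparc, a secreted collagen-binding glycoprotein and one of the most abundant genes of uninjured cells, dropped from 9639, 9361 and 11773 FPKM to 1309, 1788 and 530.3 FPKM (log2 difference -3.25, SE 0.63, adjusted p = 0.00491). The summed level of the whole list was 17496, 17483 and 13538 FPKM before and 3721, 4100 and 3013 FPKM after injury, and Sparc made up most of it in the uninjured libraries. Among 26 genes of the TGF-β, activin and Id list, 3 rose and 0 fell, against 18.8% and 1.92% of all tested genes (median 1.17, -0.27 after quantile normalization with 0 called, 1 without uninjured 1 or 2, or injured 1, and 9 without injured 3). Tgfb2, a TGF-β ligand, stood at 104, 169 and 13.6 FPKM from 0 (adjusted p = 0.0038), and Tgfb3 at 3.12, 5.24 and 2.94 FPKM from 0, without passing (adjusted p = 0.0529). Of the 3 injured values of Tgfb3, 2 were not whole reads. The receptor Tgfbr1 stood at 27.4, 35.6 and 0 FPKM from 0 (adjusted p = 0.0642). Fstl1, a secreted follistatin-like glycoprotein, went from 6.59, 4.93 and 9.06 FPKM to 156, 189.5 and 82.9 FPKM (log2 difference 4.14, SE 1.10, adjusted p = 0.0205, lost without uninjured 1 or 2, or injured 1 (adjusted p = 0.0512 to 0.0887)).

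Wnt pathway genes were mostly undecided. Of 15 tested members, 2 rose and 0 fell, against 18.8% and 1.92% of all tested genes (median 1.72, 0 higher and 0 lower after quantile normalization, 0 without uninjured 1, 2 or 3, injured 1, FoxM1-cKO uninjured 2, or FoxM1-cKO injured 2, 1 without FoxM1-cKO injured 3, and 4 without injured 3). These were Gsk3b and Sfrp1, a secreted Wnt antagonist named after its values were seen, whose call was lost without uninjured 1, 2 or 3, injured 1 or 3, FoxM1-cKO uninjured 2 or 3, or FoxM1-cKO injured 1, 2 or 3 (adjusted p = 0.052 to 0.125). Gsk3b, the kinase that marks β-catenin for degradation, went from 0, 0.188 and 0.689 FPKM to 484, 5.91 and 1471 FPKM (log2 difference 7.08, SE 2.17, adjusted p = 0.0395). Injured 2 was far below the other 2 injured libraries, and the call was lost without uninjured 1, 2 or 3, injured 1 or 3, FoxM1-cKO uninjured 2, or FoxM1-cKO injured 1, 2 or 3 (adjusted p = 0.0512 to 0.153). Ctnnb1, β-catenin itself, stood at 1.38, 0.86 and 4.74 FPKM and then 11.6, 20 and 2.43 FPKM, with overlap and no call (log2 difference 1.72, SE 1.11, adjusted p = 0.247), and the difference was -1.08 after quantile normalization. Skp1a, a subunit of SCF ubiquitin ligases, stood at 874, 0 and 8107 FPKM and then 314, 480.0 and 18.2 FPKM and did not pass (adjusted p = 0.939). Axin1, the scaffold of the destruction complex, was listed at 48.1, 0 and 128 FPKM after injury and at 0 before, and did not reach the filter. Ccnd1, cyclin D1, stood at 10.2, 12.9 and 0.589 FPKM from 0 (adjusted p = 0.0532).

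Part of the mature fibre genes fell. Of 26 tested sarcomere and fibre genes, 6 fell and 1 rose, against 1.92% and 18.8% of all genes, with a median difference of -1.92. Their summed level was 14559, 10504 and 45811 FPKM in uninjured and 1008, 768 and 1496 FPKM in injured libraries, without overlap, and uninjured 3 was the highest. Without the weighted-sum libraries the median was -2.11, and the difference of Acta1 was -5.37. Acta1, skeletal α-actin (ENSMUSG00000031972, chromosome 8, 123891769 to 123894751 of mm10), dropped from 5037, 2455 and 22045 FPKM to 274, 50.1 and 616 FPKM (log2 difference -4.98, SE 1.05, adjusted p = 0.00685). Actn3, the fast-fibre α-actinin, dropped from 3167, 2932 and 5511 FPKM to 50.4, 70.8 and 0.383 FPKM (log2 difference -7.75, SE 1.45, adjusted p = 0.00402), and Pvalb, the calcium buffer parvalbumin of fast fibres, from 948, 699.9 and 3829 FPKM to 12, 7.97 and 59.8 FPKM (log2 difference -6.15, SE 1.32, adjusted p = 0.00758). Myl1, a fast alkali myosin light chain, was at 242, 181 and 1036 FPKM and then at 0 in all 3 (adjusted p = 0.00111). Mylpf, the fast regulatory light chain, and Ryr1, the calcium release channel, also fell, and Ttn, the giant sarcomeric protein titin, rose from 0, 0 and 0.0535 FPKM to 10.4, 11.5 and 7.58 FPKM (adjusted p = 0.034), these 3 named after their values were seen. The call of Ttn was lost without uninjured 1, 2 or 3, injured 1 or 2, or FoxM1-cKO uninjured 2 (adjusted p = 0.0504 to 0.111), that of Mylpf without uninjured 1 or injured 1 (adjusted p = 0.0517 to 0.061) and that of Ryr1 without uninjured 1 or 2, injured 1 or 2, or FoxM1-cKO uninjured 2 (adjusted p = 0.0538 to 0.12). The number that rose was 2 without injured 2, 3 without injured 3, and 0 at the lowest, as without uninjured 1. The number that fell was 4 to 7 with any single library left out, 5 after thinning, 10 after median-ratio scaling and 8 after quantile normalization. The sort takes single cells, and fibre mRNA inside SCs cannot be told apart from fibre RNA carried with them.

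Motifs of muscle genes were searched in the promoters of the fibre list. A CArG box, the site of serum response factor, was present in 15.6% of 32 windows of the fibre list and 1.63% of all windows, and CAGCTG, an E-box of the kind bound by myogenic factors, in 50.0% and 16.3%. The stretch from 100 bases before to 30 after the Acta1 start is shown with its CArG box and its TATAAA in capitals (chr8:123894746-123894875, minus strand).
Acta1: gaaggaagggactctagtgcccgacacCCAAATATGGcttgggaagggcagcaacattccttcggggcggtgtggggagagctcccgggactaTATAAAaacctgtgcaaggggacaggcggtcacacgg
The CArG box comes first and TATAAA lies next to the RefSeq start. That start lies outside the Acta1 span given above, which begins at 123894751 on this strand, so TATAAA lies farther from the start of that span.

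Among markers of other resident cells, 2 tenocyte genes fell and 2 fibro-adipogenic genes rose, the latter by calls that were lost without several single libraries. Of 6 tested tenocyte markers, 2 fell and 0 rose. Tnmd, the tendon membrane protein tenomodulin, dropped from 111, 85.2 and 309 FPKM to 1.15, 2.88 and 0 FPKM (log2 difference -6.15, SE 1.07, adjusted p = 0.00256), and Fmod, fibromodulin, from 1665, 1695 and 214 FPKM to 48, 0.25 and 128 FPKM (adjusted p = 0.0491), a call lost without uninjured 1 or 2, injured 1 or 2, FoxM1-cKO uninjured 2 or 3, or FoxM1-cKO injured 1, 2 or 3 (adjusted p = 0.0557 to 0.164). The summed level of the list was 1809, 1812 and 586 FPKM and then 81.7, 19 and 187 FPKM. Kera and Thbs4, matrix proteins of tendon, did not pass (adjusted p = 0.101 and 0.841), and Thbs4 stood at 18.7, 11.7 and 62.6 FPKM and 32.5, 15.8 and 59.3 FPKM. Markers of fibro-adipogenic progenitors summed to 5600, 5663 and 2418 FPKM and then 1020, 1106 and 805 FPKM, without overlap. Col1a2, a chain of type I collagen and most of this sum in uninjured 1 and 2, stood at 4972, 5165 and 654 FPKM and then 449, 454 and 437 FPKM (adjusted p = 0.106, named after its values were seen). Of 13 tested fibro-adipogenic markers, 2 rose, a share below the 18.8% of all genes, and 0 fell, with a median of -0.19 against 1.51 for all genes. After thinning 0 rose, and after quantile normalization 0 rose and 0 fell. The number that rose was 0 without uninjured 1 or 2, injured 1, or FoxM1-cKO uninjured 2, 1 without uninjured 3, injured 2, or FoxM1-cKO uninjured 3, and 4 without injured 3. Ly6a, the Sca1 antigen that the sort excludes, stood at 11.4, 14.7 and 1.15 FPKM from 0 (adjusted p = 0.0333, lost without uninjured 1, 2 or 3, injured 1 or 2, or FoxM1-cKO uninjured 2 (adjusted p = 0.0564 to 0.119)), and Fbn1, fibrillin, went from 0, 0 and 0.478 FPKM to 8.15, 4.88 and 14.7 FPKM (adjusted p = 0.0438, lost without uninjured 1 or 2, injured 1, or FoxM1-cKO uninjured 2 or 3 (adjusted p = 0.0551 to 0.136)). Cd55, a complement regulator of the same cells, stood at 31.9, 44.7 and 0 FPKM before and 0 in all 3 after, without passing (adjusted p = 0.0535). Mfap5, a microfibril protein, stood at 0.668, 0 and 0 FPKM and then 59.2, 89.1 and 0 FPKM, also without passing (adjusted p = 0.08). Endothelial markers were near 0, with Pecam1, the CD31 antigen of the exclusion gate, at 0, 0.453 and 0 FPKM before and at 0 in all 3 after. Esam, the single tested endothelial gene, stood at 0.893, 0 and 15.3 FPKM and 0, 0 and 1.18 FPKM (adjusted p = 0.251). Acta2, smooth muscle actin, stood at 155, 0 and 1538 FPKM and 14.9, 3.5 and 28.5 FPKM (adjusted p = 0.403), and none of the 5 tested smooth muscle and pericyte genes passed.

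**Figure D5:**
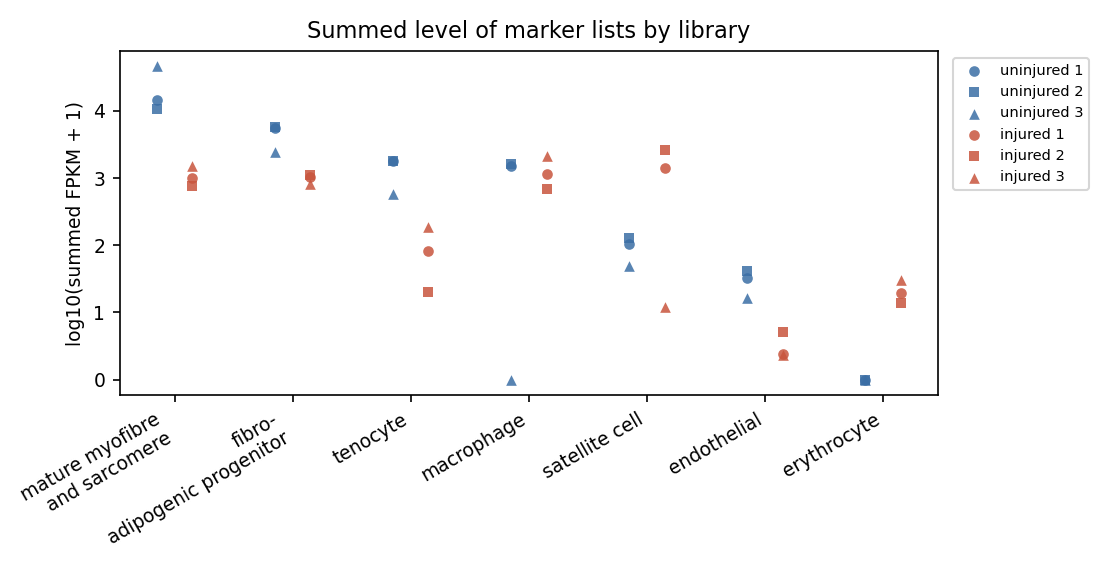
Summed FPKM of each marker list in the uninjured (blue) and injured (red) FoxM1fl/fl libraries, as log10(summed FPKM + 1), with replicate 1 as a circle, 2 as a square and 3 as a triangle. Myofibre, fibro-adipogenic and tenocyte sums are higher in all 3 uninjured libraries, erythrocyte sums are at 0 in all 3 of them, and the macrophage and satellite cell sums overlap between the groups.

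Some genes of immune cells rose after injury. Of 9 tested macrophage markers, 5 rose and 0 fell, against 18.8% and 1.92% of all tested genes. The same number rose with every single library left out, with the reads thinned and after quantile normalization, but 0 passed without the weighted-sum libraries. Only 9 of the 17 markers in the table were tested, and 8 of these were at 0 in all 3 uninjured libraries, so could not fall. Ctss and Ms4a7 passed the filter through the 3 injured libraries alone. Tyrobp, the signalling adaptor of myeloid receptors, stood at 158, 133 and 169.8 FPKM from 0 (adjusted p = 0.0009), Ctss, cathepsin S, at 23.6, 35.1 and 26 FPKM (adjusted p = 0.00141), and Cd14, the lipopolysaccharide co-receptor, at 413, 366 and 549 FPKM (adjusted p = 0.00356). Ms4a7, a membrane protein of macrophages, stood at 17.7, 19.4 and 5.5 FPKM from 0 (adjusted p = 0.00185), and Lyz2, lysozyme, named after its values were seen, at 454, 30.2 and 1330 FPKM (adjusted p = 0.00656). The defining leukocyte antigen Ptprc, CD45, was the other way round, listed at 224, 248 and 0 FPKM in uninjured and at 0 in all 3 in injured libraries, and was not tested. The sum of the list was 1511, 1612 and 0 FPKM and then 1133, 687 and 2108 FPKM, from 2, 2 and 0 genes above 0 before and 14, 9 and 12 after. The uninjured sum was mostly Fcer1g, an Fc receptor subunit of myeloid cells named after its values were seen, at 1287, 1364 and 0 FPKM. Hbb-bs, a β-globin of red cells with a near-identical neighbour, stood at 13.7, 8.68 and 22.8 FPKM from 0 (adjusted p = 0.00162). Neutrophil, lymphocyte and Schwann cell markers had no tested member. Their highest sums were 9.71 FPKM for neutrophils in uninjured 1, and 83.3 FPKM for lymphocytes and 95.6 FPKM for Schwann cells in uninjured 2. After injury they were at 0 except for 1.30 FPKM of neutrophil markers in injured 3. The part that macrophages or red cells in the sort had in these results was not tested.

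Chemokines that attract monocytes rose after injury. Of 22 tested chemokine and interleukin-6 family genes, 7 rose and 1 fell, against 18.8% and 1.92% of all tested genes (median 1.92, 5 after thinning, 3 higher and 1 lower after quantile normalization, 5 to 9 with any single library left out). Stat3 was the one that fell. Ccl7 went from 12.5, 3.89 and 0 FPKM to 623, 520.2 and 847 FPKM (log2 difference 7.33, SE 1.27, adjusted p = 0.00255), and Ccl2, the main monocyte chemoattractant, from 0, 1.42 and 0 FPKM to 246, 339 and 47.2 FPKM (log2 difference 6.89, SE 1.10, adjusted p = 0.00182). Ccl8, of the same gene cluster, stood at 62.6, 51.8 and 51.8 FPKM from 0 (adjusted p = 0.00111), and Cxcl2, a chemokine for neutrophils, at 48, 64.1 and 4.8 FPKM (adjusted p = 0.00606). Ccl8 was nearly equal in the 3 injured libraries, while Cxcl2 was lowest in injured 3. Of 16 genes of antigen presentation and interferon response, 3 rose, a share near the 18.8% of all genes, and 1 fell (median 0.98, below the 1.51 of all genes, 1 higher and 1 lower after quantile normalization, 5 without injured 2 or 3). Besides Ifitm3, these were Tap1, the peptide transporter, at 24.9, 18.9 and 17.5 FPKM from 0 (adjusted p = 0.00611), and B2m, the light chain of MHC class I, from 0, 0 and 6.65 FPKM to 86.2, 78.8 and 74.3 FPKM (adjusted p = 0.0245, lost without uninjured 1 or 2, or injured 1 (adjusted p = 0.0784 to 0.103)). Irf9, the DNA-binding part of the interferon-activated complex, fell from 17.2, 14.1 and 54.7 FPKM to 0 in all 3 (adjusted p = 0.00177). Of 34 lysosome and autophagy genes, 7 rose, again near the share of all genes, and 0 fell (median 2.34, 6 after thinning, 3 higher and 2 lower after quantile normalization, 11 without injured 2). Next to Grn, Ctsd and Ctss, Ctsb, cathepsin B, stood at 16.8, 11.3 and 26.2 FPKM from 0 (adjusted p = 0.00605).

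Some amino acid supply and ATF4 target genes rose, and their number rested on few libraries. Of 26 tested, 7 rose and 1 fell, against 18.8% and 1.92% of all tested genes (median 2.59, 5 after thinning, 1 higher and 2 lower after quantile normalization, 1 without uninjured 1 or injured 1, 2 without uninjured 2, and 11 without injured 3). Of the 26, 16 were at 0 in all 3 uninjured libraries. Aars, alanyl-tRNA synthetase, stood at 63.5, 11.8 and 177 FPKM from 0 (adjusted p = 0.00606). Slc1a5, a glutamine transporter, and Slc3a2, the heavy chain of amino acid exchangers, went from 0, 0.555 and 0 FPKM to 15.8, 8.05 and 30.6 FPKM (adjusted p = 0.0155, lost without uninjured 1 or injured 1 (adjusted p = 0.0586 to 0.0697)) and from 0.592, 0 and 0 FPKM to 21.9, 14.9 and 44.3 FPKM (adjusted p = 0.0162, lost without uninjured 1 or 2, or injured 1 (adjusted p = 0.0503 to 0.0579)). Ddit4, a stress-induced inhibitor of mTORC1, stood at 478, 728 and 1.26 FPKM from 0 (adjusted p = 0.0184, lost without uninjured 1 or 2, or injured 1 (adjusted p = 0.0503 to 0.0894)), with injured 3 far below the others.

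Whether the response depended on the genotype was tested by the difference between the injury changes of FoxM1-cKO and FoxM1fl/fl SCs. It passed for 54 of 4956 genes (1.09%), of which 19 rose and 9 fell in FoxM1fl/fl SCs. The number was 0 without uninjured 1, injured 1 or FoxM1-cKO uninjured 2, against 1076 genes at an unadjusted p under 0.05 with all libraries. It was 116 without uninjured 2, 387 without uninjured 3, 136 without injured 2, 438 without injured 3, 144 with FoxM1-cKO uninjured 1 left out, 77 with its replicate 3, and 264, 212 and 293 with FoxM1-cKO injured 1, 2 and 3. The changes of Foxm1 and Ccnb1 did not differ at this threshold (FoxM1-cKO minus FoxM1fl/fl -0.71, SE 1.22, adjusted p = 0.766, and -3.26, SE 1.46, adjusted p = 0.217, limma). Of the 26 tested fibre genes, 0 passed this test. The change of Myl1 in FoxM1-cKO SCs differed from that in FoxM1fl/fl SCs by 0.13 (SE 1.49, adjusted p = 0.974, limma).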

How the data were processed

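SCs were sorted from the muscles of 2-month-old mice, and polyA RNA of about 800 cells per library was made into libraries with a QIAseq FX single-cell kit and read as 150-base pairs. The authors deposited 1 table of FPKM values for 13775 genes in 12 libraries, 3 per genotype and state. Their processing notes name Bowtie 0.12.9, Cufflinks 2.1.1, HTSeq and mm10. The table held no column of another study's samples. FPKM divides by depth and by length, so a large change of a few abundant RNAs moves all other values, and a library of few reads lists many genes at 0.

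Groups were taken from the sample labels. Genes that reached 1 FPKM in 3 or more of 12 libraries were tested on log2(FPKM + 1) with limma 3.58.1 in R 4.3.3, with 4 group means over 12 libraries, a mean-variance trend and Benjamini-Hochberg adjustment over all 4956 genes, and called at an adjusted p under 0.05. On simulated data with 100 genes changed by each of 1, 2 and 4 on the log2 scale among 4956, 0, 0 and 5% were called. These values were drawn independently around 1 mean per gene, without the shift, depth difference or weighted sums of the real libraries. The percentages therefore do not give the power or error rate of the reported fit. Positions are from GENCODE M21, which matched 13744 of the 13775 genes. Whole reads were recovered from the steps between low FPKM values for 93.7% of 7212 genes (within 0.02 reads and 0.1%), and were used to thin libraries to 174827 reads and for a voom fit. The recovered depth counts reads in the table's genes.

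Genes were named by a rule: those the study names for SC RNA or sorting, the 10 largest changes in each direction with no overlap, a higher-group mean of 5 FPKM or more and 2 or more libraries of the lower group above 0, the 8 most abundant in each direction among genes at 0 in the other group, and up to 4 members of each list with the smallest p. The rule, the lists and the comparison were chosen with earlier results of these data known. Genes named outside the rule are marked. Certain genes are not reported here. Other pseudocounts, filters, scalings, sample sets, weights, a replicate block, and fits without each library were tried.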

Additional observations from a re-analysis of the deposited data

Results flagged for a closer look

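The test of the difference between the injury changes of the genotypes passed for 8 of the named genes (limma, adjusted p of 0.0369 to 0.0432 over 4956 genes). All 8 were named through their change in FoxM1fl/fl SCs. Differences are FoxM1-cKO change minus FoxM1fl/fl change on the log2(FPKM + 1) scale. Ccl8 differed by -5.81, Exosc4 by -9.36, Tyrobp by -6.74, Eif5a by -6.94 and Hbb-bs by -3.91, and these genes rose in FoxM1fl/fl SCs. Faim differed by 6.43, Sh3rf2 by 5.74 and Irf9 by 4.70, and these fell. Faim, Sh3rf2, Exosc4, Ccl8 and Hbb-bs were listed at 0 in all 6 FoxM1-cKO libraries. Their difference is therefore the FoxM1fl/fl change with its sign turned, and FoxM1fl/fl libraries alone took them past the filter. For these genes the test repeats the FoxM1fl/fl result and cannot show how FoxM1-cKO SCs respond to injury. Irf9 and Tyrobp were above 0 in FoxM1-cKO injured 2 alone, at 0.153 and 1.98 FPKM. Eif5a stood at 620, 620 and 590 FPKM in uninjured and at 159, 417 and 428 FPKM in injured FoxM1-cKO libraries. None of these differences passed without uninjured 1, injured 1 or FoxM1-cKO uninjured 2.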

How the results depend on the processing

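A pseudocount of 0.1 gave 1337 genes higher and 94 lower after injury and 308 that differed between genotypes. A pseudocount of 5 gave 482, 45 (527 in all) and 0. Without a filter on low values the counts were 402, 29 (431) and 0. The stricter filter of 5 FPKM gave 182 for the genotype difference and the filter over the 6 FoxM1fl/fl libraries 154. Median-ratio scaling gave 162 lower. Quantile normalization gave 172 higher, 168 lower (340) and 0. The 6 libraries alone gave 45 lower, array weights 3433, 788 (4221) and 2019, a fit without the trend 146 for the difference, thinning 52 lower and 82 for the difference, and voom 327 lower and 294. Without the weighted-sum libraries all 3 counts were 0. With 1 library left out the total ranged from 389 to 1480, the higher genes from 364 to 1429, the lower from 25 to 268 and the genotype differences from 0 to 438.

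Same-numbered libraries did not deviate together (correlations of -0.01, 0.009 and 0.014), and neither did libraries of unlike number (-0.019 to 0.03). Whether the numbers pair the samples cannot be decided from this, because replicate 1 of each FoxM1fl/fl group follows the other 2. The labels do not say. With the replicate block 959 genes were called, 857 higher and 102 lower, and 0 for the genotype difference.

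The median difference of all tested genes was 3.34 and 0.59 with pseudocounts of 0.1 and 5, 0.00 without a filter, 2.42 and 2.32 with the stricter and the 6-library filter, 1.09 and 0.14 after median-ratio scaling and quantile normalization, 1.78 with array weights, 1.62 with voom, 1.37 without the weighted-sum libraries, and 1.36 to 1.61 with 1 library left out.

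The sign of the difference turned for 8 named genes, none of which was called except Eya1. After quantile normalization the difference was -0.77 for Foxm1, -1.08 for Ctnnb1, -0.51 for Eya1 and -2.36 for Thbs4, and Thbs4 was at -1.20 after median-ratio scaling and from -0.13 to 1.03 with 1 library left out (below 0 without uninjured 2 or injured 3). Skp1a was at 0.65 with a pseudocount of 0.1, 0.34 with voom, 0.09 without the weighted-sum libraries and from -4.22 to 2.27 with 1 library left out (above 0 without uninjured 1, uninjured 3 or injured 3). With 1 library left out, Acta2 was at -5.26 to 0.04 and Pdgfrb at -1.80 to 0.53, above 0 without uninjured 3. Sdc4 was at 0.72 with array weights and from -0.96 to 1.30 with 1 library left out (above 0 without uninjured 1, uninjured 2 or injured 3). The causes were not tested. Depth limits low values: 1 read in uninjured 3 weighs more than in the other 5 FoxM1fl/fl libraries.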
